A study of Mus musculus with 22 samples.

Results

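The genes described here are 10 members of the feedback machinery that switches MAP kinases off: the dual-specificity phosphatases Dusp1, Dusp4, Dusp5, Dusp6, Dusp8, Dusp10, Dusp14 and Dusp16, and the Sprouty proteins Spry2 and Spry4. They were chosen by symbol, with earlier results of these data known, and all 10 were found among the 54514 entries of the deposited expression table. All RNA came from mpkCCD cells, an immortalised line from the mouse cortical collecting duct, the kidney segment in which vasopressin controls the water channel aquaporin-2 (Aqp2). Wild-type (WT) cells were unsorted and received vehicle (labelled as no treatment, 3 libraries) or dDAVP, a vasopressin V2 receptor agonist (3 libraries). All cells of the reporter lines (C1, C11, C43, C50) were under dDAVP and were sorted on their GFP signal, with 2 libraries from the negative and 2 from the positive fraction of each line. Every group had grown on permeable supports in a medium with serum and epidermal growth factor, and was then moved to a medium without serum or growth factors that still held dexamethasone. Each reporter line is a single clone, no clone was given vehicle, and the promoter that drives GFP is not given in the sources used here. Several dDAVP doses and durations are listed for the series and are not assigned to libraries. Nothing states that replicates came from separate cultures, so p-values measure the spread between these libraries, which may be technical.

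MAP kinases are switched on by phosphorylation of a threonine and a tyrosine, and dual-specificity MAP kinase phosphatases remove both phosphates. Dusp1, Dusp4 and Dusp5 are nuclear enzymes whose genes are induced by the kinases they restrain, Dusp6 is a cytoplasmic phosphatase selective for ERK, and Dusp8, Dusp10 and Dusp16 act mainly on the stress kinases JNK and p38. Dusp14 is a small atypical member without the MAP kinase docking domain, and Sproutys act upstream, where they dampen growth factor receptor signalling to Ras and ERK. In the collecting duct, V2 receptor occupancy raises cyclic AMP and activates protein kinase A, which can act on promoters through cyclic AMP response elements (CRE).

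The promoters of Dusp1, Dusp8 and Dusp10 are shown because these are the members called with dDAVP in WT cells or separated between fractions in all 4 clones. The sequences are from RefSeq on build GRCm38.p6, which may not be the authors' build, since theirs is not given in the sources used here. Each line gives the 250 bases before the annotated start site, 5′ to 3′ on the gene's strand, with matches to the CRE (TGACGTCA) or its half-site (TGACG, either strand) in capitals. Dusp1 lies on the minus strand at chr17:26508473-26508722, Dusp8 on the minus strand at chr7:142095285-142095534, and Dusp10 on the plus strand at chr1:184034131-184034380.
Dusp1: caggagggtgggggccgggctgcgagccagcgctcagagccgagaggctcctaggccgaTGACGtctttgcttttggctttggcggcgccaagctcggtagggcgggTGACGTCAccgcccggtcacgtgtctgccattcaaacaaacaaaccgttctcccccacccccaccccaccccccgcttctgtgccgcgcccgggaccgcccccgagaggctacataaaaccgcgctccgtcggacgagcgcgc
Dusp8: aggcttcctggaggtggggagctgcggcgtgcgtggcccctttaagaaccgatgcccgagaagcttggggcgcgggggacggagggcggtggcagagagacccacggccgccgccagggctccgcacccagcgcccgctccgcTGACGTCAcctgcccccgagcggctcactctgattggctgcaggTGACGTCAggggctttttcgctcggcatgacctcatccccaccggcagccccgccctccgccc
Dusp10: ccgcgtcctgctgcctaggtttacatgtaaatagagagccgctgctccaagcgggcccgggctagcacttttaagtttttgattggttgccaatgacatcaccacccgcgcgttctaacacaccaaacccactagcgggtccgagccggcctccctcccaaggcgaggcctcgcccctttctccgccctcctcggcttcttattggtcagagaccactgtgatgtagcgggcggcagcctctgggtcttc
The Dusp1 window held 1 full CRE at position -143 from the start site, and 3 half-site matches of which all but the one at -191 lie within that CRE. The Dusp8 window held 2 full CREs, at -107 and -63, and every half-site match there lies within them. The Dusp10 window held neither motif. Promoter windows were found for 8 of the 10 members, with Dusp4 and Spry4 unmatched, and the search ran on both strands from 250 bases before to 50 bases after the start. Over 32817 promoters of that length, 1.79% held a full CRE and 20.79% a half-site. Dusp5 held 1 half-site and 2 CArG boxes, the serum response element core, at -82 and -72, against 1.63% of promoters with a CArG box. Dusp16 held 1 half-site, and Dusp6, Dusp14 and Spry2 had no match to these motifs. None of the 8 windows matched the ETS core CCGGAAG (8.86% of promoters), the AP-1 site TGANTCA (7.81%) or the TATA sequence TATAAA (13.62%). A match describes letters in the window and is not a measured binding site.

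Expression was deposited as TPM, an abundance corrected for transcript length and scaled to a fixed total, so levels of different genes can be set side by side but the sequencing depth is unknown. A TPM of 1 or more was reached by 12293 to 14341 genes per library. The number of genes above 0 split the libraries into 10 with 17177 to 20250 and 12 with 23135 to 31292. Ribosomal-protein transcripts took 7.87% of TPM in GFP-negative replicate 1 of C50 and 3.67% to 5.86% in the 21 others. Values without that library are given beside several results. The GFP transcript checked the sort: it ran from 1065 to 1567 TPM in GFP-positive, from 5.31 to 17.6 in GFP-negative and from 0 to 0.79 in WT libraries. Of 10 principal cell markers, 8 reached a mean TPM of 1 in WT cells. Summed markers of intercalated cells, fibroblasts, endothelium and thick ascending limb stayed at or below 9.36 TPM in every library. Proximal tubule markers reached 16.1 TPM and leukocyte markers 12.9 TPM, almost all of it from Lrp2 and Cd68, while the other defining markers of both lists stayed at or below 1.87 TPM.

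Levels differed widely between members. Dusp1 was the most abundant, with a mean of 970.0 TPM over the 22 libraries and rank 106 among all entries. Dusp5 followed at 424 TPM and Dusp6 at 309 TPM. Dusp14 averaged 63.7, Dusp10 32.5, Dusp4 15.2, Dusp8 9.76, Dusp16 5.47 and Spry2 5.20 TPM. Spry4 was the lowest of the 10 at 0.245 TPM and was listed at 0 in 5 libraries. The spread over libraries differed between members: the highest library exceeded the lowest 17.1-fold for Dusp8, 6.42-fold for Spry2, 5.42-fold for Dusp10 and 5.05-fold for Dusp4, but 1.96-fold for Dusp1, 1.72-fold for Dusp6 and 1.65-fold for Dusp14.

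**Figure D1:**
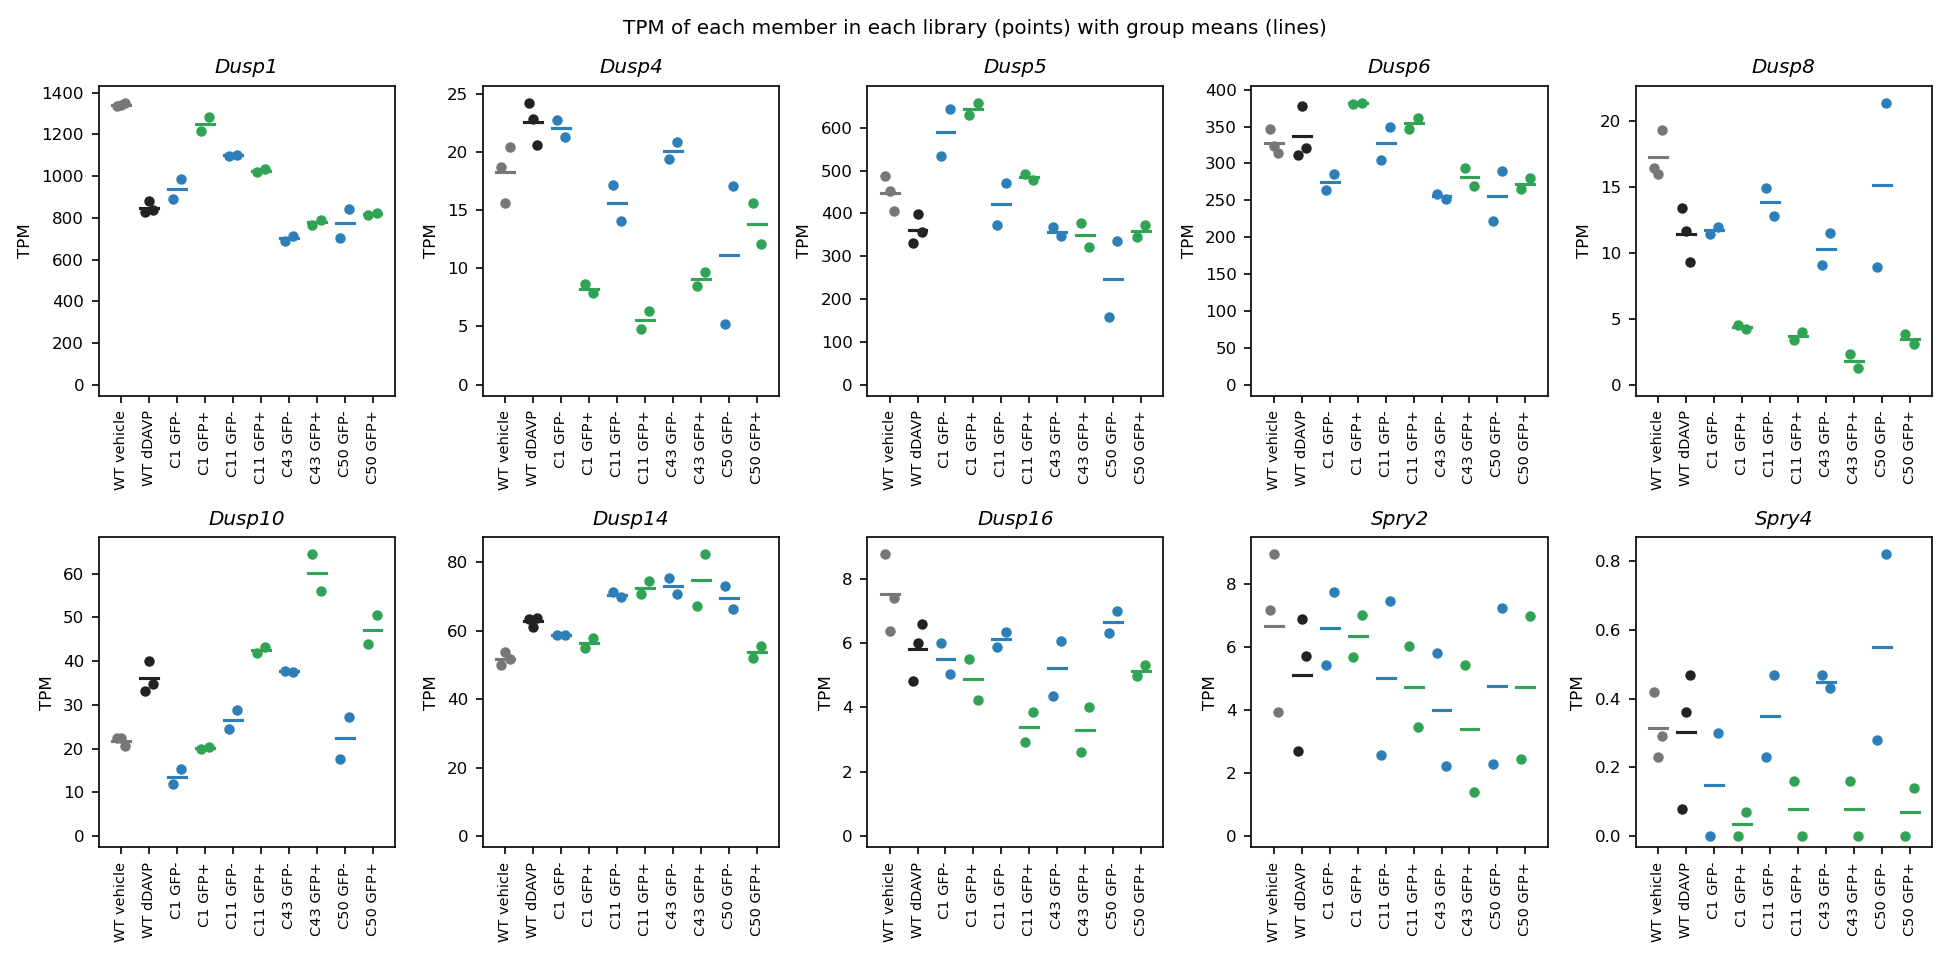
TPM of each of the 10 members (one panel each, linear axis) in the 22 libraries, grouped on the x axis; points are libraries and lines are group means. In the Dusp8 panel every GFP-positive library lies at or below 4.54 TPM and every other library at or above 8.92 TPM.

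In WT cells dDAVP lowered Dusp1 and raised Dusp10, while the other members did not pass the test. Dusp1, the nuclear phosphatase that inactivates ERK, p38 and JNK, fell to 0.633 times its vehicle level. Dusp10, the phosphatase for p38 and JNK, rose 1.65-fold (ratios of mean TPM). That makes 2 of the 9 members tested, 1 in each direction, against 8.88% of all 13494 genes called in this comparison, 2.37% higher and 6.51% lower. Spry4 stayed below the filter of a mean TPM of 1. Calls are from limma on log2(TPM + 1) at a Benjamini-Hochberg adjusted p under 0.05, and all log2 changes below are on that scale, which understates the change of low genes. The median of all genes tested was -0.16, so changes relative to that median are also given, and median-ratio scaling moved it to -0.000386. The same scaling changed the split of all calls from 320 higher and 878 lower to 451 higher and 306 lower.

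Among the nuclear phosphatases, Dusp1 measured 1334, 1340.4 and 1351 TPM in the vehicle libraries and 826, 881 and 839 TPM in the dDAVP libraries. The groups were far apart and each was tight, at 1342 ± 8.69 and 849 ± 29.0 TPM (SD, n = 3). The change was -0.66 (SE 0.0568, limma adjusted p = 0.0013), or -0.50 relative to the median gene. Dusp5, which is selective for ERK, read 487, 453 and 406 TPM with vehicle and 330, 398 and 357 TPM with dDAVP. All 3 dDAVP libraries were lower, but the change of -0.31 (SE 0.0974) did not pass, with a limma adjusted p of 0.0843, and passed at 0.0449 without dDAVP replicate 2. Relative to the median gene it was -0.15, and with median-ratio scaling it was -0.14 (limma adjusted p = 0.329). Dusp4 read 18.7, 15.6 and 20.4 TPM with vehicle and 24.2, 22.9 and 20.6 TPM with dDAVP, higher in all 3 dDAVP libraries by a narrow gap. Its change of 0.30 (SE 0.122) had a limma adjusted p of 0.150.

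The cytoplasmic ERK phosphatase Dusp6 overlapped between the groups, with 346, 324 and 314 TPM under vehicle and 311, 377 and 321 TPM under dDAVP. Its change was 0.03 (SE 0.0896, limma adjusted p = 0.82) and its sign turned negative with quantile normalization.

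For the stress kinase phosphatases, Dusp10 measured 22.5, 22.3 and 20.5 TPM with vehicle and 33.3, 40.1 and 34.8 TPM with dDAVP. Every dDAVP library lay above every vehicle library, and the change was 0.70 (SE 0.0994, limma adjusted p = 0.00964), or 0.85 relative to the median gene. Dusp8 measured 16.4, 15.99 and 19.4 TPM with vehicle and 13.4, 11.7 and 9.28 TPM with dDAVP, again without overlap and with the vehicle libraries on the higher side. Its change of -0.56 (SE 0.149) missed the threshold at a limma adjusted p of 0.0582, and passed at 0.0464 when only genes with a mean TPM of 5 or more were tested. Relative to the median gene it was -0.41, with median-ratio scaling -0.40 (limma adjusted p = 0.21) and with quantile normalization -0.34 (limma adjusted p = 0.271). Dusp16 overlapped, at 8.76, 6.39 and 7.39 TPM against 4.83, 5.99 and 6.61 TPM, with a change of -0.32 (SE 0.166, limma adjusted p = 0.229).

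The atypical phosphatase Dusp14 read 49.9, 53.7 and 51.8 TPM with vehicle and 63.5, 61.0 and 63.5 TPM with dDAVP. The groups did not overlap, yet the change of 0.27 (SE 0.0716) had a limma adjusted p of 0.0585, and 0.0334 with quantile normalization. Across all genes tested, 35.8% had groups that did not overlap, so the 6 members without overlap (Dusp1, Dusp5 and Dusp8 lower, Dusp4, Dusp10 and Dusp14 higher) are read against that share. Spry2 and Spry4 showed no separation. Spry1, another Sprouty outside the members, averaged 586 TPM with vehicle and 526 TPM with dDAVP (limma adjusted p = 0.268). Spry2 read 7.16, 8.93 and 3.92 TPM with vehicle and 2.71, 6.88 and 5.72 TPM with dDAVP, with an SE of 0.352 around a change of -0.34. Spry4 read 0.42, 0.23 and 0.29 TPM against 0.08, 0.36 and 0.47 TPM.

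**Figure D2:**
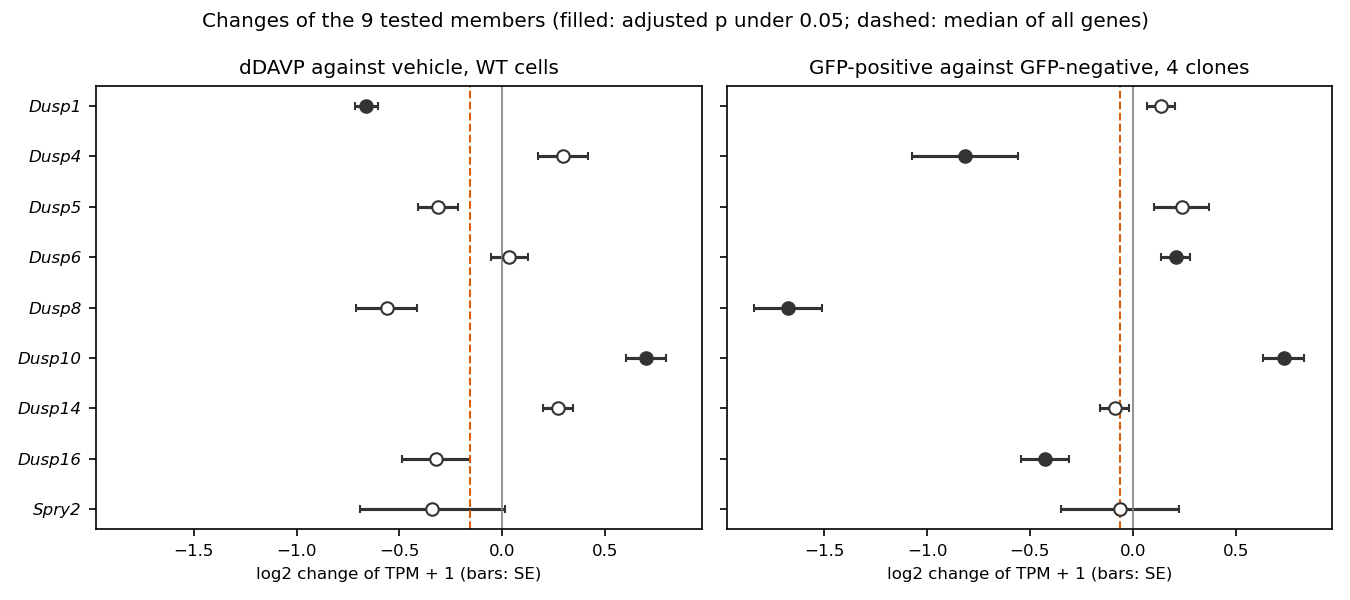
Log2 change of TPM + 1 with its SE (x axis) for the 9 tested members (y axis), for dDAVP against vehicle in 6 WT libraries and for GFP-positive against GFP-negative cells in 16 clone libraries; filled points have a limma adjusted p under 0.05 and the dashed line is the median of all genes tested. Dusp10 is filled to the right in both panels, Dusp1 is filled to the left with dDAVP and Dusp8 lies farthest left in the GFP comparison.

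The comparison of fractions asks how these genes differ between cells of a clone with high and low reporter signal, all of them under dDAVP. Mean TPM of Dusp8 in GFP-positive cells was 0.172 to 0.373 times that in GFP-negative cells of the same clone, and that of Dusp10 was 1.48 to 2.11 times as high, each with no overlap in any of the 4 clones, as was the case in 1 direction for 18.9% of all genes. Dusp4 and Dusp16 were also lower and Dusp6 was slightly higher. These 5 of 9 tested members, 2 higher and 3 lower, compare with 35.3% of all 13113 genes called, 12.1% higher and 23.2% lower. With clone means as replicates Dusp8 and Dusp10 passed, and Dusp4, Dusp6 and Dusp16 did not (limma adjusted p 0.11, 0.172 and 0.096). With median-ratio scaling the split of all calls changed from 1582 higher and 3044 lower to 2382 higher and 2294 lower. In such pooled cells, fewer cells that express a gene and less RNA per cell cannot be told apart.

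Dusp8 ran from 8.92 to 21.4 TPM (median 11.8) in the 8 GFP-negative libraries and from 1.25 to 4.54 TPM (median 3.59) in the 8 GFP-positive libraries. By clone, GFP-negative and GFP-positive libraries measured 11.4 and 12.0 against 4.54 and 4.2 TPM in C1, and 14.9 and 12.8 against 3.37 and 4.00 TPM in C11. In C43 they measured 9.04 and 11.5 against 2.29 and 1.25 TPM, and in C50 8.92 and 21.4 against 3.81 and 3.08 TPM. The GFP-positive libraries of all clones thus lay below every one of the 14 other libraries, WT cells included. The change was -1.68 (SE 0.164, limma adjusted p = 3.25e-06), and it was -1.77 without GFP-negative replicate 1 of C50. Lower libraries in all 4 clones, as for Dusp8, were found for 12.2% of genes tested.

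Dusp10 ran from 11.9 to 37.9 TPM (median 25.8) in GFP-negative and from 19.8 to 64.4 TPM (median 43.6) in GFP-positive libraries. The ranges overlap across clones, but within each clone both GFP-positive libraries were above both GFP-negative ones. C1 measured 11.9 and 15.4 against 19.8 and 20.3 TPM, and C11 24.4 and 28.9 against 41.8 and 43.3 TPM. C43 measured 37.9 and 37.5 against 64.4 and 56.1 TPM, and C50 17.7 and 27.1 against 44.0 and 50.5 TPM. The change was 0.73 (SE 0.102, limma adjusted p = 6.94e-05). Higher libraries in all 4 clones, as for Dusp10, were found for 6.72% of genes tested.

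The third stress kinase phosphatase, Dusp16, ran from 4.36 to 7.01 TPM in GFP-negative and from 2.62 to 5.50 TPM in GFP-positive libraries. It was separate and lower in C11, C43 and C50 and overlapped in C1, with a change of -0.43 (SE 0.118, limma adjusted p = 0.0106). Without C11 the change was -0.34 and no longer passed (limma adjusted p = 0.107).

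**Figure D3:**
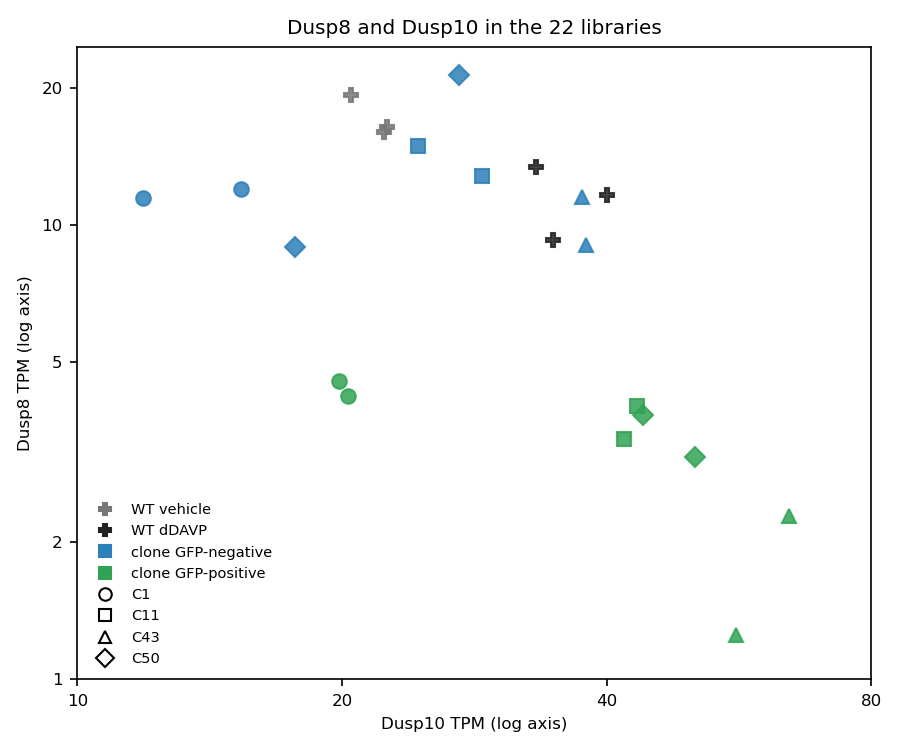
Dusp8 against Dusp10 in the 22 libraries, both in TPM on log axes; colour marks the treatment or fraction and shape the clone, with crosses for WT cells. The 8 GFP-positive libraries lie at 1.25 to 4.54 TPM of Dusp8, below all others, and from left to right they follow the clone, with C1 lowest in Dusp10.

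Of the nuclear phosphatases, Dusp4 passed the test in the fractions. It measured 22.8 and 21.3 TPM in GFP-negative against 8.64 and 7.86 TPM in GFP-positive libraries of C1, and 17.2 and 14.1 against 4.8 and 6.32 TPM in C11. In C43 it measured 19.4 and 20.8 against 8.46 and 9.67 TPM. C50 had 5.25 and 17.1 TPM in its GFP-negative and 15.6 and 12.1 TPM in its GFP-positive libraries, so that the groups overlapped there. The Dusp4 change within C50 was 0.47, and it turned to -0.30 without GFP-negative replicate 1. The change over the 4 clones was -0.82 (SE 0.257, limma adjusted p = 0.0222). Without GFP-negative replicate 1 of C50, the library at 5.25 TPM, it was -1.07 (limma adjusted p = 1.59e-05), and the call was lost without GFP-negative replicate 1 of C11 (limma adjusted p = 0.0501) or without all of C1, C11 or C43 (limma adjusted p 0.134 to 0.164).

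Dusp1 did not pass over all clones, with a change of 0.14 (SE 0.0661, limma adjusted p = 0.127). It was higher in the GFP-positive libraries of C1, at 1216 and 1284 against 888 and 984 TPM, and lower in those of C11, at 1019 and 1032 against 1098 and 1103 TPM. In C43 it read 766 and 789.6 against 689 and 715 TPM, and in C50 813 and 822 against 705 and 844 TPM. Without C11 it passed at 0.22 (limma adjusted p = 0.0489). Dusp5 ran from 159 to 644 TPM in GFP-negative and from 322 to 658 TPM in GFP-positive libraries, with a change of 0.24 (SE 0.133, limma adjusted p = 0.188). The 159 TPM came from GFP-negative replicate 1 of C50, and without it the Dusp5 change was 0.10 (limma adjusted p = 0.200). With median-ratio scaling Dusp1 (0.22, limma adjusted p = 0.0365) and Dusp5 (0.32, limma adjusted p = 0.0124) both passed.

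Dusp6 ran from 222 to 349 TPM in GFP-negative and from 265 to 382 TPM in GFP-positive libraries, a change of 0.21 (SE 0.0698, limma adjusted p = 0.0307). Most of its separation was in C1, at 264 and 285 against 381 and 382 TPM, and without C1 the change was 0.12 (limma adjusted p = 0.263). The call was lost in 12 of 29 alternatives, among them without any 1 of the 4 C1 libraries, without GFP-negative replicate 1 of C11 and without GFP-positive replicate 1 of C43 (limma adjusted p 0.0551 to 0.0687). Dusp14 overlapped in C11 and C43, was narrowly separate and lower in C1, at 55.0 and 57.8 against 58.7 and 58.8 TPM, and was lower in C50, at 52.1 and 55.6 against 72.9 and 66.2 TPM, for a change of -0.09 (SE 0.0694, limma adjusted p = 0.363), and of -0.05 without GFP-negative replicate 1 of C50.

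Spry2 ran from 2.23 to 7.75 TPM in GFP-negative and from 1.39 to 7.02 TPM in GFP-positive libraries and overlapped in all 4 clones. Its change was -0.06 (SE 0.286, limma adjusted p = 0.893), and its sign depended on the scaling. Without GFP-negative replicate 1 of C50 it was -0.19 (limma adjusted p = 0.605). Replicates of one group differed by more than the groups did: C43 GFP-positive libraries measured 5.41 and 1.39 TPM, and C11 GFP-negative libraries 2.57 and 7.45 TPM. Spry2 had a median of 3.08 TPM in the 10 libraries with fewer genes above 0 and of 6.93 TPM in the 12 with more. Deviations from group means correlated with those of that number at Pearson's r 0.94 for Spry2 and 0.80 for Spry4. For Dusp5 r was 0.69, and for Dusp6 and Dusp10 it was 0.66. For Dusp1, Dusp4, Dusp8, Dusp14 and Dusp16 r lay between -0.34 and 0.35. With the number of genes above 0 as a covariate the Spry2 change was -0.07 (limma adjusted p = 0.721). Spry4 was at or below 0.82 TPM in GFP-negative and at or below 0.16 TPM in GFP-positive libraries, and was listed at 0 in 4 of the latter and 1 of the former. All 5 of these are among the 10 libraries with fewer genes above 0, in which its median was 0.04 TPM, against 0.295 TPM in the 12 others. With no filter on low TPM its change was -0.35 (SE 0.103, limma adjusted p = 0.0465), values that lie below the filter used for all other calls.

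Within single clones, where the spread of all 16 libraries was shared, Dusp8 was the member called in all 4, though in C1 it lost the call in 14 of 24 alternatives, among them no filter on low TPM (limma adjusted p = 0.12) and leaving out any 1 of the 4 C1 libraries (0.147 to 0.204). Its change was -1.24 in C1, -1.66 in C11, -1.75 in C50 and -2.04 in C43, with an SE of 0.324 each and limma adjusted p from 0.00161 to 0.041. Dusp10 passed in C43 (0.66, limma adjusted p = 0.0372) and C50 (1.07, limma adjusted p = 0.00211) with an SE of 0.190. In C1 and C11 it changed by 0.54 and 0.66 without passing, although limma's unadjusted p was 0.00516 in both C11 and C43. C1 also had Dusp1 (0.42, SE 0.0889) and Dusp6 (0.47, SE 0.120) higher, C11 had Dusp4 lower (-1.34, SE 0.368) and C50 had Dusp14 lower (-0.36, SE 0.114). Of 24 alternatives, 17 ended the Dusp4 call in C11, 16 that of Dusp14 in C50, 13 that of Dusp6 in C1 and 11 that of Dusp10 in C43. In C1 that made 3 of 9 members, 2 higher and 1 lower, against 7.22% of all genes (2.31% higher, 4.91% lower). In C11 it was 2, both lower, against 7.94% (2.23% higher, 5.7% lower). For C43 it was 1 higher and 1 lower, against 16.3% (4.29% higher, 12% lower), and for C50 1 higher and 2 lower, against 26.6% (12.8% higher, 13.8% lower). Without GFP-negative replicate 1 of C50 more of the table was called in the other clones, 15.9% of genes in C1, 17.7% in C11 and 29.6% in C43. The members called in addition were Dusp10 in C1 (limma adjusted p = 0.021) and C11 (0.00735) and Dusp4 in C1 (-1.32) and C43 (-1.07). Without that library the C50 changes were -2.34 for Dusp8 and 0.77 for Dusp10, both called, and Dusp14 was not (-0.29, limma adjusted p = 0.106), while Dusp5 went from 0.64 to 0.10 without a call in either fit. Without replicate 2 in its place, 7 members were called in C50, where 52.2% of all genes were. These were Dusp10 (1.37), Dusp4 (1.24), Dusp5 (1.17), Dusp6 (0.30) and Dusp1 (0.21) higher and Dusp8 (-1.16) and Dusp14 (-0.43) lower. From the 4 libraries of C50 alone no member passed (unadjusted p under 0.05 for 2), and limma adjusted p was 0.188 for Dusp8 and 0.186 for Dusp10. Calls over all genes within C50 went as low as 22 among the alternatives.

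**Figure D4:**
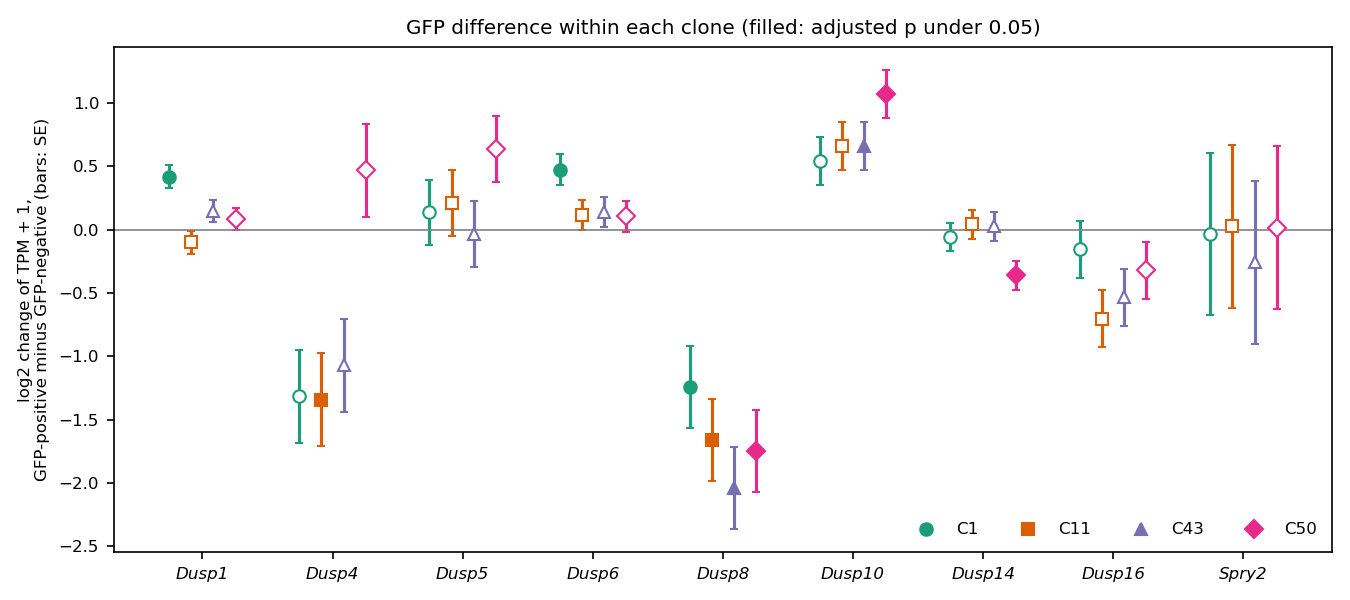
Log2 change of TPM + 1 between GFP-positive and GFP-negative cells (y axis, with SE) for the 9 tested members (x axis) within each of the 4 clones, marked by shape and colour; filled symbols have a limma adjusted p under 0.05. Dusp8 is filled and below 0 in every clone, from -1.24 in C1, where 14 of 24 alternatives ended the call, to -2.04 in C43, and Dusp4 lies below 0 in C1, C11 and C43 and at 0.47 in C50, where it is -0.30 without GFP-negative replicate 1.

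Whether the fraction difference varied with the clone was tested directly by the interaction, and none of the 9 members passed limma's F-test, against 0.869% of all genes (114). Unadjusted p was under 0.05 for Dusp1 (0.0119) and Dusp4 (0.0144), with adjusted p of 0.239 and 0.248. The count changed when GFP-negative libraries of C50 were left out. Without GFP-negative replicate 1 of C50, Dusp1 passed (limma adjusted p = 0.0241), where 2.49% of all genes did. Without replicate 2 of the same group, 4 members passed: Dusp4 (limma adjusted p = 0.000608), Dusp5 (0.00396), Dusp1 (0.00528) and Dusp10 (0.0386). In that fit 38.6% of all genes passed.

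Averaged over the fractions, the level differed between clones for 5 of 9 members, against 28% of all genes. A clone difference within each fraction was not tested. Mean Dusp14 in C50, for one, was 69.55 TPM in GFP-negative and 53.9 TPM in GFP-positive cells. By limma's F-test of the clone terms the 5 members were Dusp10 (adjusted p = 2.69e-05), Dusp1 (0.00058), Dusp5 (0.00263), Dusp6 (0.0175) and Dusp14 (0.0316). Dusp5 was highest in C1, where the fraction means were 589 and 644 TPM, and its lowest group mean was in the GFP-negative cells of C50, whose libraries read 159 and 335 TPM. Dusp1 was also high in C1 and C11 and low in C43 and C50. Dusp14 lost its call in 11 of 23 alternatives, among them median-ratio scaling (adjusted p = 0.26) and leaving out any 1 library of C1. For Dusp8 (adjusted p = 0.145), Dusp16 (0.219), Spry2 (0.449) and Dusp4 (0.618) no difference between clones was called. Without GFP-negative replicate 1 of C50, Dusp8 (0.0296) and Dusp4 (0.0203) passed as well, where 44.8% of all genes did.

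Ordered over the 10 groups, Dusp10 was highest in GFP-positive C43 (60.2 ± 5.89 TPM, SD, n = 2), then GFP-positive C50 (47.2 ± 4.57) and GFP-positive C11 (42.6 ± 1.05), each separate from the next. GFP-negative C43 (37.7 ± 0.255) and dDAVP-treated WT cells (36.1 ± 3.57, n = 3) overlapped below them. GFP-negative C11, GFP-negative C50 and vehicle WT cells then overlapped from one to the next between 26.7 and 21.8 TPM. Both fractions of C1 came last, GFP-positive at 20.1 ± 0.354 and GFP-negative at 13.6 ± 2.45 TPM. Aqp2 had its highest mean in the same 3 groups in the same order, at 6952, 4651 and 3002 TPM, and was lowest in GFP-negative C1 (69.5 TPM) and vehicle WT cells (69.1 TPM). As a description over 10 group means, which share clones and treatment, Pearson's r with Aqp2 was 0.79 for Dusp10 (Spearman's rho 0.82) and -0.75 for Dusp8 (rho -0.92).

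The Dusp8 order opened with vehicle WT cells (17.3 ± 1.83 TPM, n = 3), followed by GFP-negative C50 (15.2 ± 8.81) and GFP-negative C11 (13.8 ± 1.48), which overlapped from one to the next. GFP-negative C1, dDAVP-treated WT cells and GFP-negative C43 formed a second overlapping run from 11.7 to 10.3 TPM. The GFP-positive groups ended the order at 4.37 TPM in C1, 3.69 in C11, 3.45 in C50 and 1.77 in C43, where only C11 and C50 overlapped. Dusp16 followed Dusp8 over the groups (r 0.89, rho 0.95), though most of its neighbouring groups overlapped. Dusp1 was highest in vehicle WT cells, separate from GFP-positive C1 (1250 ± 48.1 TPM), and lowest in GFP-negative C43 (702 ± 17.9 TPM). For Spry2 every neighbouring pair of groups overlapped, from 6.67 ± 2.54 TPM in vehicle WT cells to 3.40 ± 2.84 TPM in GFP-positive C43.

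Genes of like pattern were sought among 9592 genes with a mean TPM of 5 or more, by Pearson's r over the 10 group means of log2(TPM + 1). For Dusp8 they were Morn4 (r 0.99), Klhdc2 (0.98) and Bmp1 (0.98). For Dusp10 they were Gsdmc2 (0.97), Rasd1 (0.97) and Gstt3 (0.97). Dusp5 was most like Actn1, Mapk14 and Shroom3 (0.97 each), and Mapk14 encodes the p38 alpha kinase. Dusp1 was most like Tubgcp2, Nemp2 and Ift140 (0.92 each), and Dusp4 like Mtdh (0.94), Tmf1 (0.93) and Dph2 (0.93). Dusp6 was most like Stxbp6, Rab20 and Adck1 (0.88 to 0.89), Dusp14 like Smdt1 (0.95), Skp1 (0.95) and Sra1 (0.91), and Dusp16 like Prmt5, Srsf3 (0.96 each) and Setdb2 (0.95). For Spry2 the best matches P4htm (0.98), Arhgef10 (0.95) and Cand2 (0.95) had r of 0.61, 0.53 and 0.60 over the 22 single libraries. Over those libraries r was 0.94 to 0.96 for the genes named with Dusp8 and Dusp10, 0.80 to 0.95 for those of Dusp1 and Dusp5, 0.74 to 0.85 for Dusp4, 0.71 to 0.78 for Dusp6, 0.67 to 0.83 for Dusp14 and 0.76 to 0.86 for Dusp16.

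Of the other genes of these pathways, 2 were called with dDAVP in WT cells, Mapk13 and Fos, where 8.88% of all genes were called (2.37% higher, 6.51% lower). No gene was called among 2 remaining MAP kinase phosphatases, 8 atypical phosphatases, 4 Sprouty and Spred inhibitors and 21 genes of the ERK cascade, in which limma's unadjusted p was under 0.05 for 0, 0, 1 and 7 genes. In the JNK and p38 cascade 1 of 14 was called, Mapk13, the p38 delta kinase, which was lower (-0.30, limma adjusted p = 0.0419), a call lost with median-ratio scaling and when any 1 library other than dDAVP replicate 2 was left out. Among 11 ERK target transcripts 1 was called, Fos, the immediate-early transcription factor. Fos fell from 3838 to 4257 TPM with vehicle to 2267 to 2815 TPM with dDAVP, a change of -0.68 (limma adjusted p = 0.00722). The list medians ran from -0.31 for the Sprouty and Spred inhibitors to -0.10 for the atypical phosphatases, beside -0.16 for all genes. In the same comparison 6 of 7 genes of G2 and M phase were lower, with a summed level of 754 to 819.7 TPM under vehicle and 443 to 615 TPM under dDAVP. Their part in the results was not tested. Without dDAVP replicate 2, 3 genes each of the ERK cascade and of the ERK targets were called, all lower, while calls over all genes rose from 1198 to 2038.

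Between the fractions genes of 5 of the 6 lists were called, and each count below is to be read against the 35.3% of all genes called (12.1% higher, 23.2% lower). Dusp2, a nuclear inducible phosphatase of the same family, ran from 12.9 to 56.7 TPM in GFP-negative and from 2.68 to 6.13 TPM in GFP-positive libraries, a change of -2.33 (SE 0.144, limma adjusted p = 3.95e-08). It was the 1 gene called of 2 remaining MAP kinase phosphatases tested. Dusp12 was the 1 called of 8 atypical phosphatases (-0.28, limma adjusted p = 0.00253). With median-ratio scaling or quantile normalization no gene of that list was lower and 1 was higher. None of 4 Sprouty and Spred inhibitors passed (unadjusted p under 0.05 for 1). Of 21 genes of the ERK cascade 4 were lower, among them Ptpn11, the phosphatase SHP2 (-0.82, limma adjusted p = 3.01e-06), Hras (-0.34) and Map2k2, the kinase MEK2 (-0.31). Araf was the 1 higher (0.26). The list's median was -0.10, beside -0.06 for all genes.

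Of 14 genes of the JNK and p38 cascade 4 were higher, namely Map3k5, the kinase ASK1 (0.86, limma adjusted p = 0.00236), Map3k1 (0.50), Mapk9, the kinase JNK2 (0.44), and Mapkapk3 (0.40). Mapk12, the p38 gamma kinase, was the 1 lower (-0.25), and the list's median was 0.09. The split was 7 higher and 0 lower with median-ratio scaling, which ended the Mapk12 call, and 7 higher and 1 lower with quantile normalization. Of 11 ERK target transcripts 4 were lower and 1 was higher, or 4 lower and 3 higher with median-ratio scaling. Ccnd1, which encodes cyclin D1, ran from 10.9 to 24.4 TPM in GFP-negative and from 0.64 to 2.55 TPM in GFP-positive libraries (-3.23, limma adjusted p = 3.53e-09). Its GFP-positive values, with a mean of 1.24 and a median of 0.92 TPM, lie near the filter. Etv4, an ETS transcription factor, ran from 3.59 to 7.77 TPM and from 0 to 0.19 TPM. Fosl1 was lower as well (-0.76), and so was Etv5, at means of 1.75 and 0.355 TPM. Etv4 and Etv5 averaged less than 1 TPM in GFP-positive cells and entered the test only through the GFP-negative libraries, so their values are a description. With the filter at a mean TPM of 5, 2 genes of that list were lower and 1 was higher. Fos went the other way, at 1515 to 3400 TPM against 2500 to 4072 TPM (0.64, limma adjusted p = 0.000299), and the list's median was -0.26. Araf, Mapk12, Spry1 and the Fos value between fractions fall outside the naming rule and were chosen after their values were seen.

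Without GFP-negative replicate 1 of C50 the counts called were 10 of the ERK cascade (1 higher, 9 lower), 8 of the JNK and p38 cascade (5 higher, 3 lower), 3 of the atypical phosphatases (1 higher, 2 lower), 2 of the remaining phosphatases and 1 of the Sprouty and Spred inhibitors (all lower), while calls over all genes rose from 4626 to 6043. With clone means as replicates they were 3 of the ERK cascade, 2 of the JNK and p38 cascade and 0 of the atypical phosphatases, and calls over all genes fell to 2406. All 7 genes of G2 and M phase were lower in GFP-positive cells, with a summed level of 555 to 985 TPM in GFP-negative and 229 to 428 TPM in GFP-positive libraries. Their part in the differences of Dusp8, Dusp10 and the pathway genes was not tested.

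**Figure D5:**
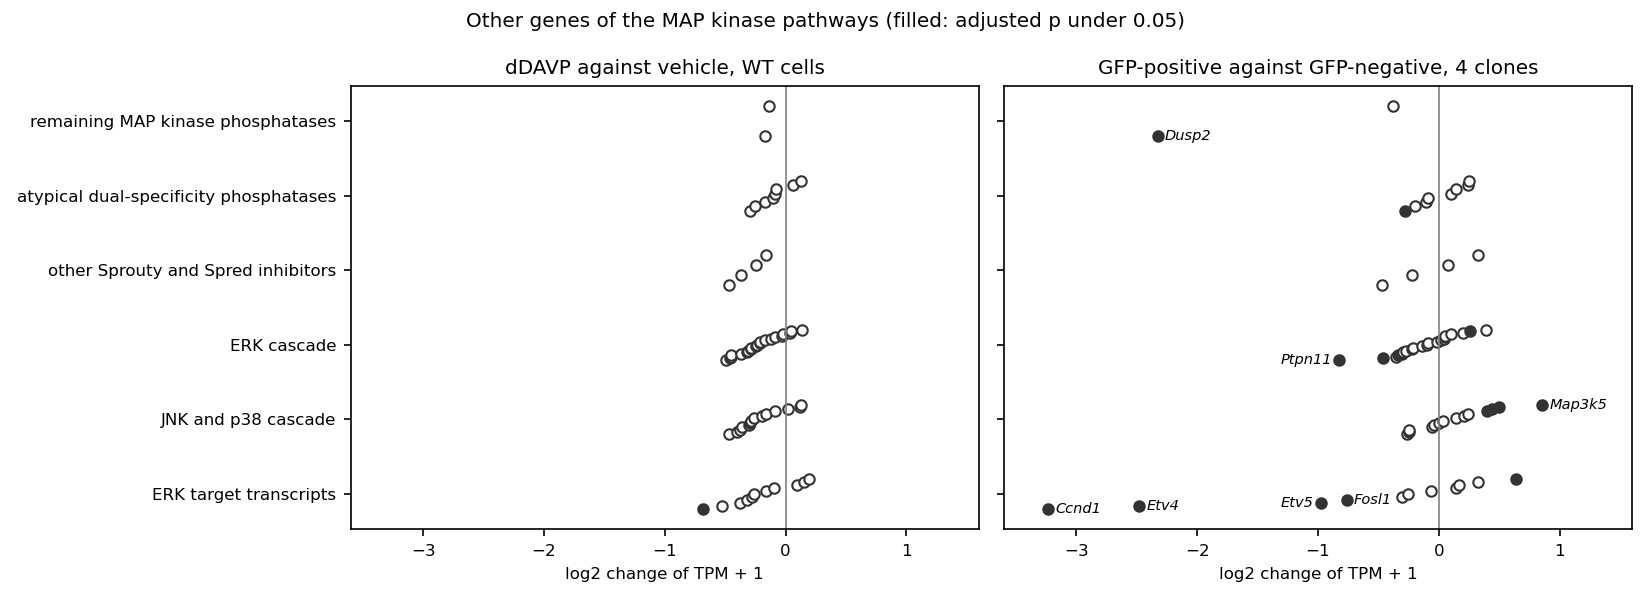
Log2 change of TPM + 1 (x axis) of each tested gene in 6 pathway lists (y axis) for dDAVP against vehicle in WT cells and for GFP-positive against GFP-negative cells of 4 clones; filled points have a limma adjusted p under 0.05, and called genes that changed by the most are named. With dDAVP 2 points are filled, and between fractions Ccnd1, Etv4 and Dusp2 lie farthest to the left.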

How the data were processed

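The 22 libraries were made from total RNA with a SMART-Seq HT and Nextera XT protocol, per the labels' protocols. The submitters' processing notes name STAR and RSEM, and versions, genome build and annotation are not given in the sources used here. The authors deposited TPM per gene and library in a table of 55415 lines, which keep no depth, so replicate spread is the measure of precision. The 980 lines that share one of 79 symbols were summed. The 16 columns of means, ratios and maxima were not used, and 0 pairs of libraries were identical.

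Groups and replicate numbers came from the labels. Models were fitted with limma 3.58.1 (statmod 1.5.0, R 4.3.3) to log2(TPM + 1). Genes entered where TPM averaged 1 or more across the fitted libraries. The fits had a mean-variance trend, two-sided tests and Benjamini-Hochberg adjustment over all genes. The dDAVP fit used 6 WT libraries, the GFP fit 16 clone libraries with the clone as covariate, and the within-clone contrasts and interaction a mean per clone and fraction. The code was tested on simulated data.

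All members were named. Of each pathway list up to 4 called genes with the largest changes could be named per comparison, and 3 genes of like pattern per member. Members and lists were chosen with earlier results of these data known. Alternatives were a pseudocount of 0.1, filters at a mean TPM of 5 or none, median-ratio and quantile scaling, moderation without a trend, the libraries of a clone alone, a replicate block, genes detected as a covariate, clone means, and leaving out each library or clone. One called gene of the ERK cascade list is not reported here.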

Additional observations from a re-analysis of the deposited data

How the results depend on the processing

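Dusp8 and Dusp10 kept their direction and call between fractions in all 29 alternatives, with changes of -1.95 to -1.55 and 0.62 to 0.81, and Dusp1 kept its dDAVP call in all 14, at -0.74 to -0.49. Of 9 members, 2 were called with dDAVP. The count was 4 with the filter at a mean TPM of 5 and 2 to 3 when a library was left out. It was 5 with the number of genes detected as a covariate, where calls over all genes rose from 1198 to 2694. Between fractions 5 were called. The count was 7 with median-ratio scaling (4 higher, 3 lower), 2 with clone means as replicates, 3 without C1, C11 or C43, and 3 to 5 when a library was left out. Within C1 the count was 3, but 0 with no filter, 5 with median-ratio scaling, 1 without the trend, and 0 to 5 without one library. Within C11 it was 2, but 1 with no filter or without the trend, and 0 to 3 without one library. Within C43 it was 2, but 1 with no filter, 4 with median-ratio scaling, and 1 to 3 without one library. Within C50 it was 3, but 0 from its own 4 libraries, and 2 to 7 without one library. The interaction count was 0, or 0 to 4 without one library. Clones differed for 5, or 3 with no filter, and 4 to 7 without one library. From the clone's own 4 libraries, the counts within C1, C11 and C43 were 4, 3 and 3. The cause of these changes was not tested.

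Within single clones, Dusp8 kept its call in all 24 alternatives in C43, 20 in C11 and 23 in C50. Dusp10 kept it in 23 in C50 and Dusp1 in 18 in C1.

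Over all genes, calls ran from 122 to 2694 around 1198 with dDAVP, 2406 to 6043 around 4626 between fractions, 377 to 2094 around 947 within C1, 858 to 3891 around 2134 within C43, 318 to 2331 around 1041 within C11, 22 to 6820 around 3486 within C50, 11 to 5038 around 114 in the interaction and 2653 to 5889 around 3669 between clones. Directions turned for uncalled members. Dusp6 with dDAVP was -0.045 with quantile normalization, and from -0.052 (without dDAVP replicate 2) to 0.086 when a library was left out. Spry2 between fractions was 0.0033 with median-ratio scaling, 0.022 with quantile normalization, 0.0017 without C43, and from -0.19 to 0.084 when a library was left out. Dusp14 between fractions was 0.0029 without C50.

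The labels do not say whether replicate numbers pair the samples. Deviations of same-numbered WT libraries correlated at -0.21, -0.03 and -0.11, and those of the 4 clones at 0.02 to 0.20. Such values from so few libraries cannot settle it. With a replicate block, Dusp10 lost its dDAVP call (limma adjusted p = 0.0766), which left 1 member called, no gene of the ERK target and JNK and p38 lists was called with dDAVP, so that Fos and Mapk13 lost theirs, and 1 member each was called within C1 and C11. Dusp4 between fractions had a limma adjusted p of 0.0504 with the block.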
